A study of Gossypium hirsutum with 6 samples.

Results

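Of the 65126 identifiers in an FPKM table of upland cotton (Gossypium hirsutum) leaves, 5351 carry the prefix BGI_novel in place of a chromosome or scaffold label, and 268 of these had a mean of 20 FPKM or more over the 6 libraries. FPKM, fragments scaled to transcript length and to the mapped fragments of the library, is a level per length, so that levels of different transcripts can be compared on it. The 268 well expressed BGI_novel transcripts are described here by their abundance, their spread between libraries and their difference between green and virescent leaves. Chromosome-labelled genes of the same mean FPKM stand beside them as background, 7287 in all. The members were chosen by their level over all libraries, so their abundance is a description. The difference between the genotypes and the spread within each did not enter the rule, but a mean can be carried by a few high libraries. The choice is therefore not independent of spread, and 254 of the 268 members also had a median of 20 FPKM or more. By genotype, 29 members reached the threshold only through the virescent mean and 16 only through the wild-type mean. The other 223 had means of 20 FPKM or more in both genotypes.

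Messenger RNA was sequenced from the first true leaf of 3 wild-type libraries, with the genotype label msmsv1v1, and 3 libraries of the virescent mutant Yt30, with the label MSmsv1v1. The symbols ms and v1 stand in both labels, and only the MS allele differs between them. The genotype symbols thus do not show the virescent trait, and the direction of every difference rests on the names wild type and virescent mutant in the labels. The labels give no plant or pool for a library, and the spread behind each p-value is only that between these libraries; it may be technical. No treatment is named.

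Virescent plants unfold pale young leaves that green later, because their chloroplasts mature late. The labels do not explain the symbols MS and ms, and a difference that goes with MS cannot be told apart here from a virescent one. Transcripts outside a gene annotation are in general a mixture of coding genes that the annotation missed, long noncoding RNAs, RNAs of repeats and pieces of annotated genes. The prefix does not tell which of these a given identifier is. None of the 268 identifiers, and 0 of the 65126 in the table, matched the RefSeq reference table, and the deposited table does not pair them with names or positions, so no function, sequence or defining leaf marker is given.

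A pair of libraries, 1 of each genotype, stood apart in the BGI_novel transcripts. Of the 5351 BGI_novel identifiers, 446 (8.33%) were at 1 FPKM or more in both wild type 2 and virescent 3 and at least 2-fold above each of the other 4 libraries. The same held for 32 of the 57913 chromosome-labelled genes (0.0553%) and for 1 of the 1862 scaffold genes. Virescent 3 also stood below virescent 1 and 2 in many members. Results that move with these libraries are given with and without them.

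Abundance was uneven among the members. The median of the 268 mean levels was 43.6 FPKM, with quartiles of 28.0 and 83.9 FPKM. By class of mean level, 77 members lay from 20 to below 30 FPKM, 79 from 30 to below 50, 63 from 50 to below 100, 27 from 100 to below 200, 17 from 200 to below 500, and 5 at 500 FPKM or more. The threshold of 20 FPKM was reached by 5.01% of BGI_novel identifiers and by 12.6% of chromosome-labelled genes. A further 3436 BGI_novel identifiers had means from 1 to below 20 FPKM, and 1647 stayed below 1 FPKM. In 191 members every library was at 20 FPKM or more. No member was listed at 0 in any library, and 4 members fell below 5 FPKM in at least 1.

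At the threshold, the members just inside were BGI_novel_G003408, at a mean of 20.01 FPKM, and BGI_novel_G001145, at 20.36 FPKM. Just outside were BGI_novel_G001242, at 19.90 FPKM, and BGI_novel_G004989, at 19.83 FPKM.

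Together the members held 2.14%, 2.28% and 2.32% of the summed FPKM in wild type 1, 2 and 3, and 2.52%, 2.75% and 2.20% in virescent 1, 2 and 3. Wild-type libraries averaged 2.25% ± 0.0945 (SD, n = 3) and virescent libraries 2.49% ± 0.276 (SD, n = 3). Virescent 1 and 2 lay above every wild-type library and virescent 3 lay among them, so the genotypes overlapped. Without virescent 3 the virescent mean was 2.63%. In whole leaves, fewer cells of a type and less RNA per cell cannot be told apart. The 5 most abundant members made up 28.3% ± 1.0 of the members' FPKM in wild-type libraries and 27.6% ± 2.17 in virescent libraries (SD, n = 3 each). All BGI_novel identifiers together held 3.55% ± 0.196 and 3.79% ± 0.155 (SD, n = 3) of the summed FPKM.

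The most abundant member, BGI_novel_G005184, was at 2315.86, 2198.3 and 2053.26 FPKM in wild type 1, 2 and 3 and at 1623.98, 1527.52 and 2151.26 FPKM in virescent 1, 2 and 3. Virescent 1 and 2 were its lowest libraries, while virescent 3 lay within the wild-type range. Its log2 change, virescent minus wild type on the log2(FPKM + 1) scale, was -0.32 ± 0.15 (SE), which missed the threshold (limma adjusted p = 0.198).

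BGI_novel_G003661 showed the opposite order, at 1154.58, 1519.05 and 1741.77 FPKM in the wild type and 2234.39, 3227.96 and 1244.68 FPKM in virescent leaves. Virescent 1 and 2 were above every wild-type library and virescent 3 was again among them. The log2 change of 0.52 ± 0.33 (SE) missed the threshold (limma adjusted p = 0.341). BGI_novel_G001236 followed it from library to library, at 730.59, 835.37 and 1131.5 FPKM in the wild type and 1472.32, 2132.3 and 765.42 FPKM in virescent leaves. The ratio of BGI_novel_G003661 to BGI_novel_G001236 lay between 1.51 and 1.82 in all 6 libraries, while each of the pair varied far more.

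BGI_novel_G003892 was steadier, at 1278.6, 1206.93 and 1523.14 FPKM in the wild type and 1247.2, 1254.93 and 1111.16 FPKM in virescent leaves. Its genotypes overlapped (log2 change -0.14 ± 0.13 SE, limma adjusted p = 0.4931). BGI_novel_G001757 was at 731.51, 720.37 and 669.23 FPKM in the wild type and 623.46, 597.26 and 826.55 FPKM in virescent leaves. It was lowest in virescent 1 and 2 and highest in virescent 3. The ratio of BGI_novel_G005184 to BGI_novel_G001757 was between 3.05 and 3.17 in the wild-type libraries and between 2.56 and 2.60 in the virescent libraries. This pair and that of BGI_novel_G003661 and BGI_novel_G001236 were picked after their values were seen. Ratios of other pairs are not given, and the difference in ratio was not tested.

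**Figure D1:**
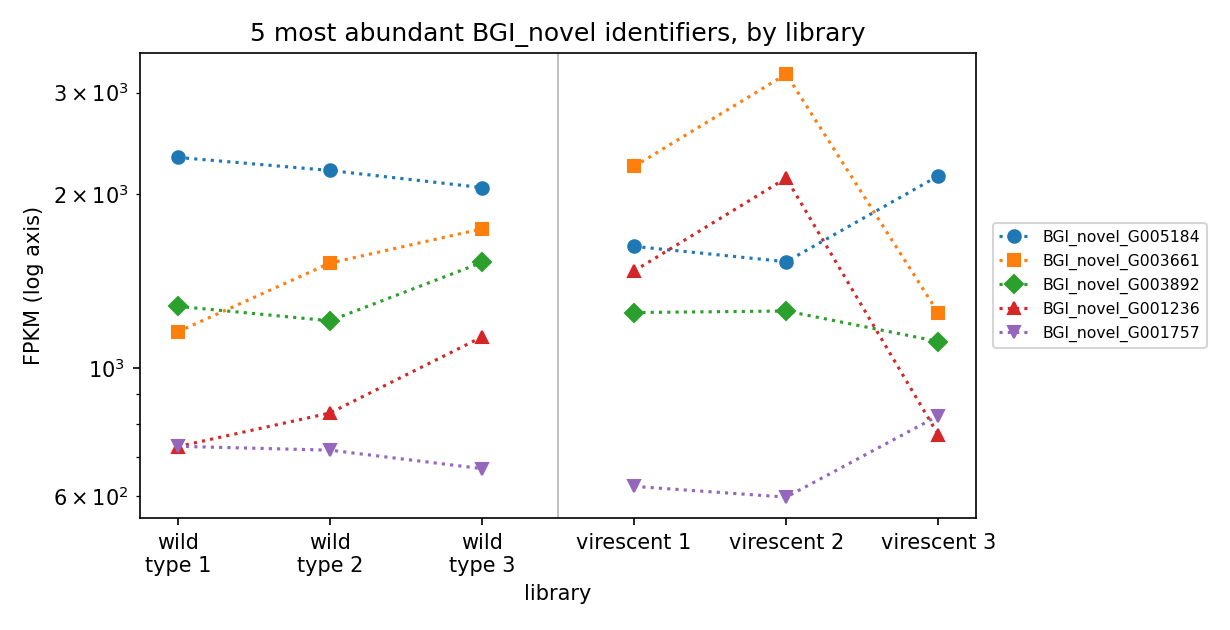
FPKM (log axis) of the 5 most abundant BGI_novel identifiers in each library; each point is 1 library and the dotted lines only join points of the same identifier. BGI_novel_G003661 and BGI_novel_G001236 move in parallel, high in virescent 1 and 2 and back at the wild-type level in virescent 3, while BGI_novel_G005184 and BGI_novel_G001757 are lowest in virescent 1 and 2.

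The genotypes were compared with limma over all 43104 genes at 1 FPKM or more in at least 3 libraries, all 268 members among them, and a gene with a Benjamini-Hochberg adjusted p below 0.05 is called. Of the members, 31 were called (11.6%), against 10.3% of all genes tested and 14.3% of chromosome-labelled genes of mean 20 FPKM or more. Weighted to the members' classes of mean FPKM, the share of chromosome-labelled genes was 14.5%. The members' share is near this background and is no result about them. The calls were 28 rises and 3 falls in virescent leaves. Rises were 10.4% of the members, against 6.3% of all tested genes, 10.8% of chromosome-labelled genes of mean 20 FPKM or more, and 11% weighted to the members' classes. Falls were 1.12% of the members, against 4.05%, 3.54% and 3.48%.

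The rises had a median log2 change of 0.81 and ranged from 0.48 to 2.53, with mean levels from 22.9 to 220 FPKM. In 22 of the 28, both genotype means were at 20 FPKM or more, and in 1 of the 3 falls. A change of at least 2-fold was called in 12 members (4.48%), 11 rises and 1 fall. The background shares were 4.4% of all tested genes and 5.5% of chromosome-labelled genes of mean 20 FPKM or more. Rises of at least 2-fold were 4.1% of the members, against 3.39% of chromosome-labelled genes weighted to the members' classes. Falls of that size were 0.373%, against 2.13%. A further 6 members had fitted changes of at least 2-fold, 2 up and 4 down, that missed the threshold. Their pooled within-genotype SDs were 0.597 to 1.89 on the log2 scale, and those of the called members had a median of 0.181 and reached 0.756. In all 31 called members the genotypes lay apart, with no library of one among those of the other. With 3 libraries per genotype a call nearly requires this, so it adds no support.

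Single libraries moved the counts. There were 4 rises and 0 falls without wild type 1, 7 and 0 without wild type 3, and 11 and 0 without virescent 1. Rises were then 1.49%, 2.61% and 4.1% of the members, against 1.18%, 2.62% and 4.25% of chromosome-labelled genes weighted to the members' classes. The weighted chromosome-labelled shares of falls were 0.366%, 0.835% and 1.28%, so calls were lost in the background as well. Without virescent 2 the calls were 15 rises and 9 falls, without virescent 3 they were 22 and 0, and without wild type 2 they were 26 and 6. Without virescent 3 rises were 8.21% of the members and falls 0%, against 7.58% and 1.98% of chromosome-labelled genes weighted alike. Without wild type 2 the shares were 9.7% and 2.24%, against 10.5% and 5.15%. The order against the background moved too: without virescent 2 rises were 5.6% and falls 3.36% of the members, against 5.03% and 2.91% of chromosome-labelled genes weighted to the same classes. After scaling by the median ratio of the libraries, 20 members rose and 7 fell, so that 74.1% of the calls were rises. On the FPKM as deposited this was 90.3%. The scaled rises were 7.46% and the falls 2.61% of the members, against 8.3% and 4.27% of chromosome-labelled genes weighted alike. Without both wild type 2 and virescent 3, a choice made after seeing the data, 33 members rose and 3 fell, and 20 of these 36 were among the 31. In that fit rises were 12.3% and falls 1.12% of the members, against 10.1% and 4.23% of chromosome-labelled genes weighted alike.

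Over the 268 members the median log2 change was 0.19, with quartiles of -0.07 and 0.42, and 186 members (69.4%) had a positive estimate. The median of all tested genes was 0.05, and that of chromosome-labelled genes, weighted to the members' classes, was 0.13, with 64.8% positive. After median-ratio scaling these 3 medians were 0.13, -0.01 and 0.07. Without virescent 3 the medians of the members, all tested genes and weighted chromosome-labelled genes were 0.27, 0.06 and 0.16, and without both wild type 2 and virescent 3 they were 0.30, 0.07 and 0.17. Virescent leaves lay above the wild type without overlap in 70 members (26.1%), against 20.5% of all tested genes and 30.8% of chromosome-labelled genes of mean 20 FPKM or more. They lay below without overlap in 15 members (5.6%), against 13.2% and 10.1%.

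**Figure D2:**
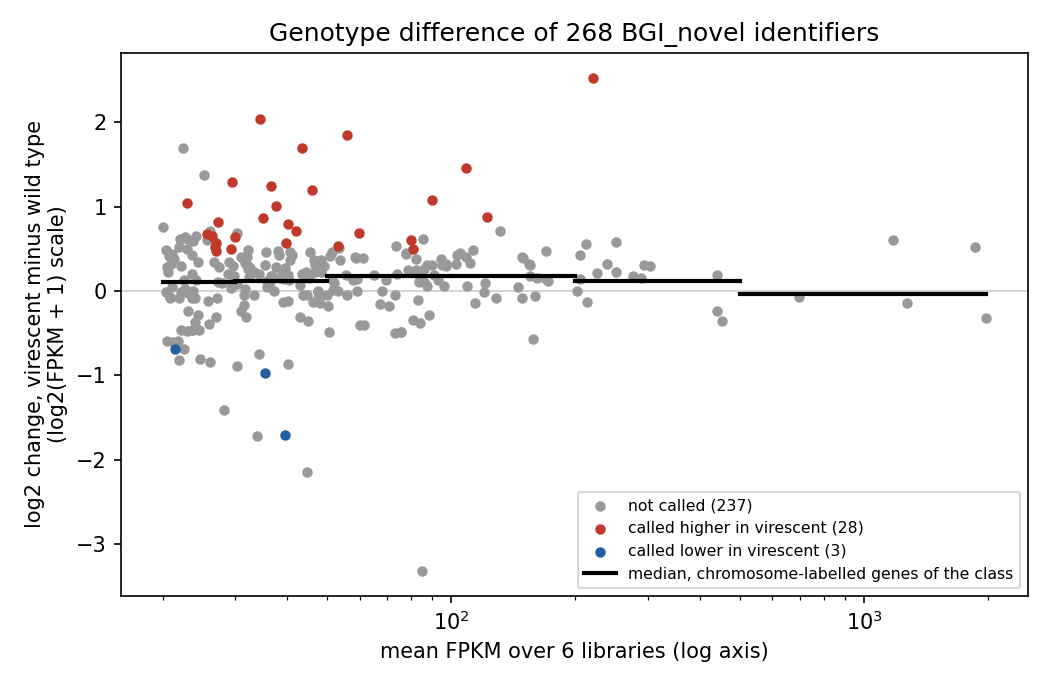
Log2 change (virescent minus wild type, log2(FPKM + 1) scale) of each of the 268 members against its mean FPKM (log axis); black bars are the medians of chromosome-labelled genes in the same class of mean FPKM. The 28 rises reach 2.53, the 3 falls reach -1.71, and the lowest point, BGI_novel_G005814 at -3.32, was not called.

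The largest rise was that of BGI_novel_G004783, at 56.82, 75.06 and 57.95 FPKM in wild type 1, 2 and 3 and 261.52, 397.83 and 472.92 FPKM in virescent 1, 2 and 3. All virescent libraries were well above all wild-type libraries. The wild-type mean was 63.3 ± 10.2 FPKM and the virescent mean 377 ± 107 FPKM (SD, n = 3 each). The log2 change was 2.53 ± 0.23 (SE, limma adjusted p = 0.003963). This call was kept in every fit with 1 library left out.

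BGI_novel_G003808 rose from 5.49, 26.98 and 12.01 FPKM in the wild type to 57.06, 46.66 and 58.38 FPKM in virescent leaves. The virescent libraries lay close together and the wild-type libraries spread widely, with wild type 2 nearest to them. Its wild-type mean was 14.8 FPKM, so it reached 20 FPKM only through the virescent mean of 54.0 FPKM. The log2 change was 2.04 ± 0.46 (SE, limma adjusted p = 0.03275). The call was lost when any 1 library other than wild type 2 was left out (limma adjusted p = 0.0636 to 0.0982).

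The 3 falls were smaller than the rises of BGI_novel_G004783 and BGI_novel_G003808. Their median log2 change was -0.97, against 0.81 for all 28 rises. BGI_novel_G001969 fell from 61.6, 42.2 and 77.77 FPKM in the wild type to 13.6, 30.74 and 12.14 FPKM in virescent leaves, with virescent 2 nearest to the wild type. Its log2 change was -1.71 ± 0.36 (SE, limma adjusted p = 0.02745), and the call was lost without wild type 1, wild type 3, virescent 1 or virescent 3 (limma adjusted p = 0.0685 to 0.106). Its virescent mean was 18.8 FPKM, so it reached 20 FPKM only through the wild-type mean of 60.5 FPKM.

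BGI_novel_G003882 fell from 45.86, 41.78 and 52.11 FPKM to 20.64, 34.07 and 17.77 FPKM. Virescent 2 was again nearest to the wild type. The log2 change was -0.97 ± 0.23 (SE, limma adjusted p = 0.03974), and the call was lost without any 1 library other than virescent 2 (limma adjusted p = 0.0504 to 0.128).

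BGI_novel_G000937, named because there were only 3 falls, went from 28.55, 23.76 and 27.74 FPKM to 15.61, 18.03 and 14.95 FPKM. Both genotypes were tight, and the log2 change was -0.69 ± 0.13 (SE, limma adjusted p = 0.02162). The call was lost without wild type 1, wild type 3, virescent 1 or virescent 3 (limma adjusted p = 0.0517 to 0.0907). Only the wild-type mean, 26.7 FPKM, reached 20 FPKM, and the virescent mean was 16.2 FPKM.

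**Figure D3:**
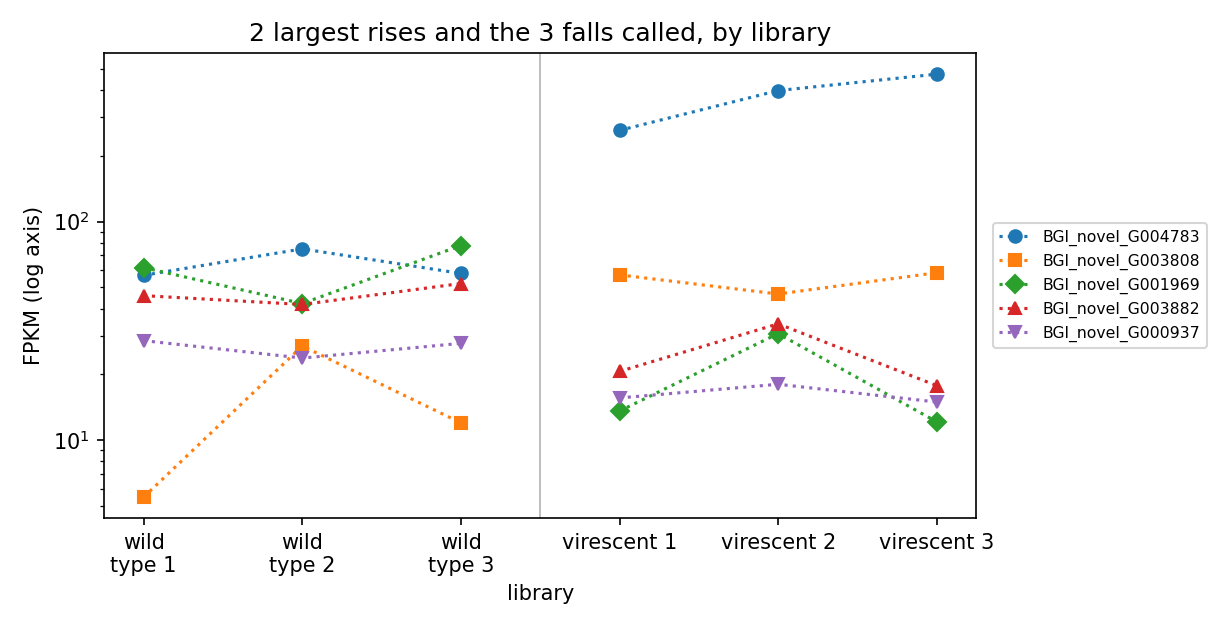
FPKM (log axis) in each library of the 2 members with the largest rises and of the 3 that fell; each point is 1 library and the dotted lines only join points of the same identifier. Wild-type and virescent points are apart in each of the 5, and virescent 2 is the virescent library nearest to the wild type in all 3 falls.

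Libraries of 1 genotype lay further apart, at the median, in the members than in chromosome-labelled genes of like mean FPKM. Transcript length and number of fragments, on which counting spread depends, were not matched. The members' median pooled within-genotype SD on the log2(FPKM + 1) scale was 0.235, with quartiles of 0.151 and 0.421, against 0.179 for chromosome-labelled genes weighted to the same classes. In the wild type alone the medians were 0.191 and 0.159, and in virescent leaves 0.235 and 0.170. An SD of 0.5 or more was found in 49 members (18.3%), against 6.15% of chromosome-labelled genes weighted alike. Of the members, 73 (27.2%) lay above the 90th percentile of the chromosome-labelled genes in their class. Leaving out virescent 3 lowered the members' median SD to 0.189 and that of the chromosome-labelled genes to 0.157, and 56 members (20.9%) lay above the percentile. An SD of 0.5 or more was then found in 13.1% of members against 5.2% of weighted chromosome-labelled genes, and in 10.4% against 4.03% without both wild type 2 and virescent 3, where the median SDs were 0.180 and 0.142. With any other single library left out the members' median stayed between 0.227 and 0.238. These are descriptions over genes, which are not replicates, and they were not tested.

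The steadiest member, BGI_novel_G001124, was at 18.91, 20.14 and 19.33 FPKM in the wild type and 33.34, 31.74 and 30 FPKM in virescent leaves. The libraries of a genotype were nearly level and the genotypes well apart, with a pooled SD of 0.0608. The log2 change was 0.68 ± 0.11 (SE, limma adjusted p = 0.01444). Leaving out wild type 1, wild type 3 or virescent 1 lost its call (limma adjusted p = 0.0542 to 0.0673). The level of 20 FPKM was reached by its virescent mean, 31.7 FPKM, and not by its wild-type mean, 19.5 FPKM. BGI_novel_G003393 was next, at 41.26, 42.57 and 37.13 FPKM against 48.09, 46.4 and 45.34 FPKM, with a pooled SD of 0.0772. Its genotypes did not overlap, and it was not called (log2 change 0.21 ± 0.11 SE, limma adjusted p = 0.2703).

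Virescent 3 was the library most often below its genotype. In 38 members (14.2%) virescent 3 was at least 1.5-fold below both other virescent libraries, against 4.0% of chromosome-labelled genes weighted to the same classes. For the other 5 libraries the members' share was 2.24% to 3.36%, against 0.326% to 3.91% of weighted chromosome-labelled genes. In virescent 2 it was 2.61% against 0.326%, so a share above the background was not particular to virescent 3. In wild type 2 it was below the background, at 2.24% against 3.91%. In 51 members (19.0%) virescent 1 and 2 were above every wild-type library while virescent 3 was not, against 10.7% of chromosome-labelled genes weighted alike. In 20 of these (7.46% of the members, against 0.984%) virescent 3 was also at least 1.5-fold below virescent 1 and 2. BGI_novel_G003661 and BGI_novel_G001236 belong to this set, as do 9 of the 20 most abundant members in its wider form. The patterns were chosen after seeing the values.

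**Figure D4:**
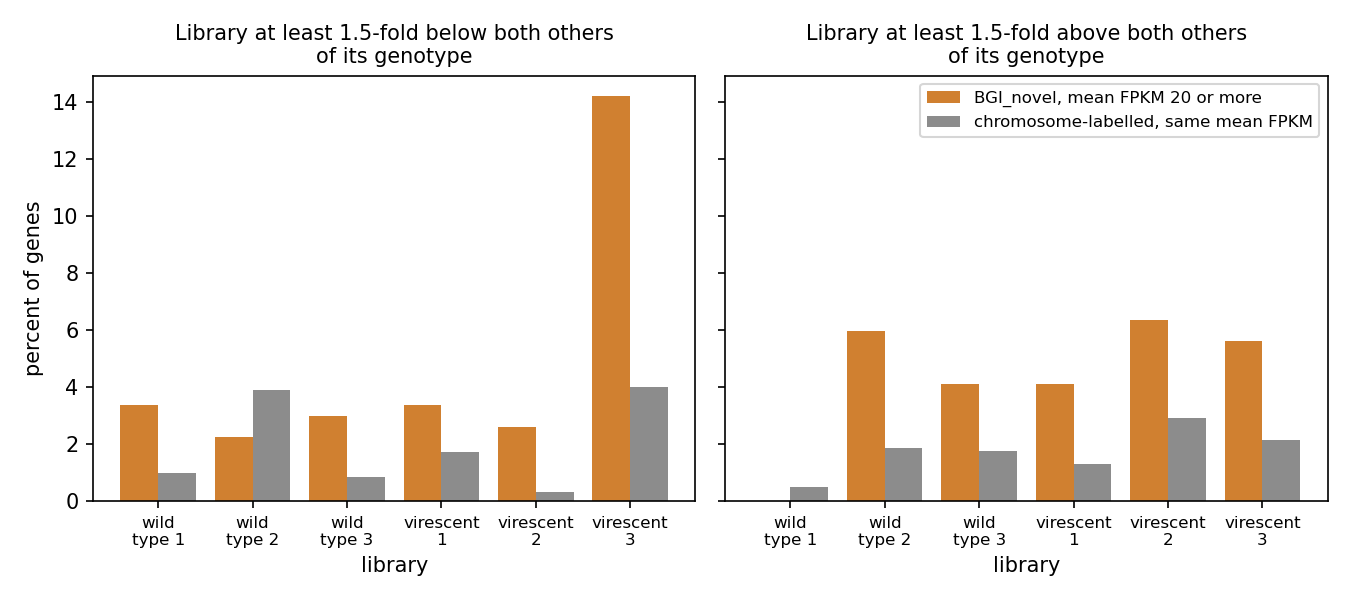
Percent of genes in which a library lies at least 1.5-fold below (left) or above (right) both other libraries of its genotype, for the 268 members (orange) and for chromosome-labelled genes weighted to the same classes of mean FPKM (grey). The tallest bar is virescent 3 below its genotype, at 14.2% of members against 4.0%.

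BGI_novel_G005814 had the third largest spread and the largest fitted change of any member. It was at 103.6, 17.99 and 349.57 FPKM in the wild type and 3.41, 32.01 and 3.85 FPKM in virescent leaves. Wild type 2 lay below virescent 2, so the genotypes overlapped. The log2 change of -3.32 ± 1.11 (SE) missed the threshold (limma adjusted p = 0.09803), and passed it without wild type 2 (-4.43, limma adjusted p = 0.02773). Without wild type 3, its highest library, the change was -2.32 (limma adjusted p = 0.2425), and over all libraries left out in turn it ran from -4.43 to -2.32. The virescent mean of this member was 13.1 FPKM, so it reached 20 FPKM only through the wild-type mean of 157 FPKM.

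The 2 members with the largest spread were high in wild type 2 and virescent 3 alone. BGI_novel_G005489 was at 2.04, 73.87 and 1.59 FPKM in wild type 1, 2 and 3 and at 1.83, 0.17 and 51.47 FPKM in virescent 1, 2 and 3, with a pooled SD of 2.81. BGI_novel_G005528 was at 1.20, 80.72 and 7.52 FPKM in the wild type and at 7.07, 0.52 and 64.27 FPKM in virescent leaves, with a pooled SD of 2.68. In both, 1 library of each genotype was far above its fellows and carried the mean. The wild-type and virescent means were 25.8 and 17.8 FPKM for the first and 29.8 and 24.0 FPKM for the second. With log2 changes of -0.59 ± 1.65 and -0.31 ± 1.57 (SE), their difference is undetermined.

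In 5 more members, named after their values were seen, wild type 2 and virescent 3 were at least 2-fold above each of the other 4 libraries. BGI_novel_G002283 was at 57.92 and 52.9 FPKM in these libraries and at 3.03 to 8.51 FPKM in the others. BGI_novel_G005548 was at 61.08 and 59.29 FPKM, against 12.79 to 21.6 FPKM. The differences were steep in these members and the levels in wild type 2 and virescent 3 nearly equal.

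BGI_novel_G001034 was at 129.41 and 140.01 FPKM in wild type 2 and virescent 3, against 25.2 to 60.99 FPKM in the others. BGI_novel_G001726 was at 63.62 and 71.4 FPKM, against 13.23 to 27.12 FPKM, and BGI_novel_G004416 at 80.99 and 62.52 FPKM, against 18.92 to 30.08 FPKM. Over the 7 members, the lower of wild type 2 and virescent 3 was 2.08 to 25.2 times the highest of the other 4 libraries. A pattern with 1 high library in each genotype cannot show a difference between the genotypes, so their test says nothing further. No member had this pattern in any of the other 8 pairings of a wild-type with a virescent library.

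**Figure D5:**
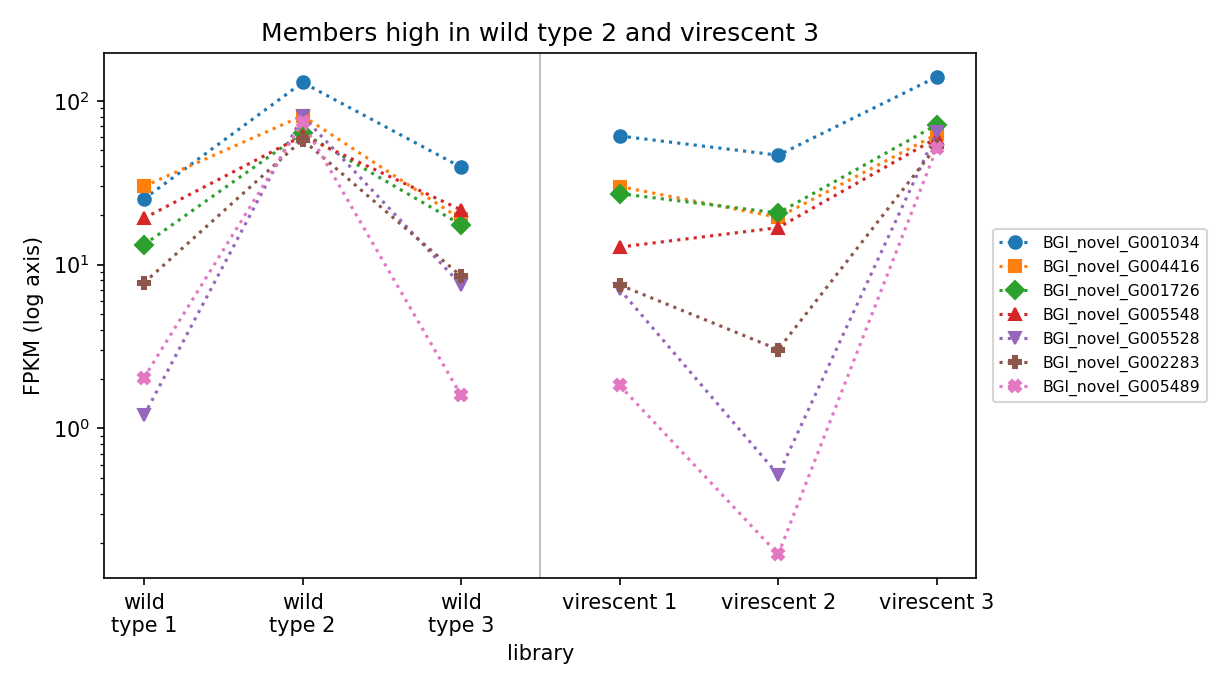
FPKM (log axis) in each library of the 7 members that are at least 2-fold higher in wild type 2 and virescent 3 than in each other library; each point is 1 library and the dotted lines only join points of the same identifier. The 2 libraries peak in every member, at 51.47 to 140.01 FPKM, and the other 4 reach down to 0.17 FPKM.

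The 7 members were the most abundant of a larger set with the same 2 libraries high. Of the 446 BGI_novel identifiers with this pattern, 51 met the filter for the test between the genotypes, which asks for 1 FPKM in 3 libraries and so leaves out transcripts present in these 2 alone. In the 446 the summed level was 2730.0 FPKM in wild type 2 and 2605.9 FPKM in virescent 3. In wild type 1, wild type 3, virescent 1 and virescent 2 it was 199.6, 260.1, 285.7 and 151.6 FPKM. In 333 of them the other 4 libraries were all below 0.5 FPKM, and in 31 they were all listed at 0. The 446 took up 0.263% of the FPKM of wild type 2 and 0.245% of that of virescent 3. BGI_novel identifiers were 93.1% of the 479 identifiers of any kind with this pattern. In each of the other 8 pairings of a wild-type with a virescent library, 0 to 4 BGI_novel identifiers and 0 to 33 chromosome-labelled genes met the same rule. Which transcripts these are was not tested, since the table gives no sequence or position.

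BGI_novel identifiers are numbered from 1 to 5906, and 27 pairs of members had consecutive numbers. In 4 pairs 1 of the 2 was called, and in 0 pairs were both called. Of all members 11.6% were called, so these counts are no result about neighbouring numbers. No member shared its 6 values with another identifier. Whether near-identical copies in the A and D subgenomes share reads with a member is not known from the table.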

How the data were processed

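The values deposited by the authors are FPKM, per the file headers, in a single table with 1 column for each of 6 libraries. How reads were aligned, assembled and counted is, beyond this, not given in the sources used here. A mouse build, mm10, is the only one in the submitters' processing notes. FPKM is divided by each library's mapped fragments, so a value also moves with the most abundant transcripts. Summed FPKM was 1019041 to 1068010 per library; depth in fragments is unknown, so no counting interval is given.

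Members and lists were chosen with earlier results of these data known. FPKM was transformed as log2(FPKM + 1), and limma 3.58.1 (R 4.3.3) compared the genotypes (genotype as the only term, mean-variance trend) over 43104 genes at 1 FPKM or more in at least 3 libraries, with Benjamini-Hochberg adjustment over all of them. The log2(FPKM + 1) scale understates changes of low genes. Chromosome-labelled shares and medians were weighted to the members' 6 classes of mean FPKM. Named were the 5 most abundant members, the 2 largest called rises and falls without overlap, the 3 largest and 2 smallest spreads, and the 2 identifiers on each side of the threshold. Alternatives were another pseudocount, filters, scalings, a fit with no trend, a block of replicate numbers, left-out libraries and other member rules.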

Additional observations from a re-analysis of the deposited data

How the results depend on the processing

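The 28 rises, 3 falls, 12 changes of at least 2-fold and 14.5% of chromosome-labelled genes called depended on the settings as follows. Leaving out 1 library gave 4 to 26 rises, 0 to 9 falls, 3 to 14 at 2-fold or more and 1.54% to 15.7%. Without a filter there were 12 rises, 1 fall, 5 at 2-fold and 8.16%. Falls were 5 with the filter of 5 FPKM, 5 with equal summed FPKM and 7 with median-ratio scaling. In the absence of both number-2 libraries there were 24 rises and 12 falls. In that fit 21 changes reached 2-fold, and no background share is given for these. In this order the falls were 1.87%, 1.87%, 2.61% and 4.48% of the members, against 3.9%, 3.8%, 4.27% and 5.24% of weighted chromosome-labelled genes. In the same order the rises were 10.8%, 8.21%, 7.46% and 8.96%, against 12.2%, 9.06%, 8.3% and 5.97%. The rule of 20 FPKM in both genotypes kept 223 members, with 22 rises, 1 fall and 7 at 2-fold. The rule of a mean of 50 FPKM kept 112 members, with 9 rises, 0 falls and 4 at 2-fold. Of chromosome-labelled genes weighted to these sets, 14.6% and 15.6% were called. Both rules keep fewer members, so lower counts do not by themselves show a lower share of calls. With the replicate number as a block there were 7 rises, 0 falls, 7 at 2-fold and 2.64%. Same-numbered libraries had deviations correlated at 0.08, -0.28 and -0.24 over the tested genes. Wild type 2 correlated best with virescent 3, at 0.25, and wild type 3 with virescent 2, at 0.33. Each deviation was taken from the mean of its genotype, so the deviations within a genotype cancel out in every gene. High values in some pairings therefore force low ones in others. Whether libraries of one number have a common origin is not decided by these values, and the cause of the correlations was not tested.

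The median SD of 0.235 was 0.189 to 0.238 with 1 library left out and 0.180 without wild type 2 and virescent 3. It was 0.232 for members by a median of 20 FPKM and 0.207 for members by 20 FPKM in both genotypes. The members' share of FPKM was 2.13% in the wild type for members by 20 FPKM in both genotypes, and 1.79% and 2% in wild type and virescent for members by a mean of 50 FPKM. Every called member kept the sign of its estimate under these fits, which the lack of overlap largely fixed beforehand. The library pair held 72 tested BGI_novel identifiers against 59 chromosome-labelled genes at 1.5-fold, 51 against 14 at 2-fold and 31 against 7 at 4-fold, of 3600 and 38766 tested.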

Other observations

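Of the 7287 chromosome-labelled genes that averaged 20 FPKM or more, 3 shared the pattern of wild type 2 and virescent 3, against 7 of the 268 BGI_novel members. Gh_A09G0065 was at 69.74 and 77.60 FPKM in these libraries and at 10.01 to 14.75 FPKM in the other 4. Gh_D10G1600 was at 84.11 and 42.87 FPKM, against 6.53 to 8.41 FPKM. Gh_D02G1418 was at 61.02 and 40.44 FPKM, against 7.13 to 8.92 FPKM. These genes were named after their values were seen, and the files give no function for them.

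In another pairing, wild type 3 and virescent 2, 33 chromosome-labelled genes and 4 BGI_novel identifiers were at 1 FPKM or more in both and at least 2-fold above the other 4 libraries. For wild type 2 and virescent 3 these counts were 32 and 446.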
